A study of Sus scrofa with 16 samples.

Results

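The known microRNAs (miRNAs) of the ovary were compared between the luteal and the follicular phase of the estrous cycle in low-fecundity sows. The study sequenced small RNA from the ovaries of 16 Canadian Large White sows (Sus scrofa), 4 in each combination of 2 phases and 2 levels of fecundity. The 8 libraries of low-fecundity sows were used here, 4 from the luteal phase (LL, taken on day 14) and 4 from the follicular phase (FL, taken on day 20), with day 1 as the first day of estrus. Each library came from 1 sow, no sow was sampled in both phases, and no treatment or allele separated the groups. The sows were assigned to low fecundity by their total number of piglets per birth. Of the 1940 entries in the deposited table of read counts, 216 are known pig miRNAs, and these are the members described. Their species prefix ssc- is left out of the names.

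A miRNA is a short RNA that guides the silencing machinery to messenger RNAs that pair with its seed, and so lowers their translation and stability. In the ovary, miRNAs are known for roles in granulosa cells, which surround the oocyte and make estradiol in the growing follicle, and in luteal cells, which arise from granulosa and theca cells after ovulation and make progesterone. On day 14 the ovary of a cycling sow carries corpora lutea, and on day 20 it carries large follicles ahead of the next ovulation.

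Total counts ran from 14172683 to 24593646 per library in LL and from 8998496 to 24892715 in FL. Known miRNAs held 98.83% to 98.97% of the counts in LL and 97.08% to 98.55% in FL. Levels are given as CPM, the usual depth-scaled count, computed on the tested miRNAs after scaling by the trimmed mean of M-values (TMM). The CPM of a library have no fixed sum. The TMM factors were 1.00 to 1.36 in LL and 0.536, 1.04, 0.742 and 1.21 in FL1 to FL4. A lower factor raises every CPM of a library, so FL1 and FL3 are raised relative to their shares of counts. Across the 193 known miRNAs tested, Pearson correlations of log2(CPM + 1) were 0.913 to 0.986 between LL libraries, 0.875 to 0.966 between FL libraries and 0.816 to 0.921 between an LL and an FL library. The points of these correlations are miRNAs of the same libraries and are not replicates. The first principal component held 45.1% of the variance and separated the LL from the FL libraries. The second held 27.7% and set FL2 and FL4 apart from FL1 and FL3. Counts above 0 in each of the 8 libraries were found for 178 known miRNAs, and 2 were at 0 throughout. The filter asked for a minimum count in at least 4 libraries and kept 23 known miRNAs, among them the 2 at 0, out of the test. Of these 23, 9 had 100 counts or more in at least 1 library but reached the minimum in too few.

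The gonad miRNA miR-202-5p was present in all 8 libraries at 1696, 4250.0, 1897 and 2563 CPM in LL1 to LL4 and 825, 335, 339 and 65.5 in FL1 to FL4. Markers of other tissues differed between libraries before any comparison of phases. The list for oviduct and other tubal epithelium (miR-34c, miR-429, miR-205, miR-182 and miR-183) summed to 1129, 1124, 549 and 454 CPM in LL1 to LL4 and 217, 8322, 186 and 16326 in FL1 to FL4. FL2 and FL4 thus stood far above the other 6 libraries, mostly through miR-34c. FL1 and FL3 had the highest sums of the skeletal or cardiac muscle list, at 4198 and 2363 CPM, against 574 to 1166 CPM in LL and 626 and 882 CPM in FL2 and FL4. Counts of miRNAs are therefore also given without FL2 and FL4, an alternative chosen after seeing the data.

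**Figure D1:**
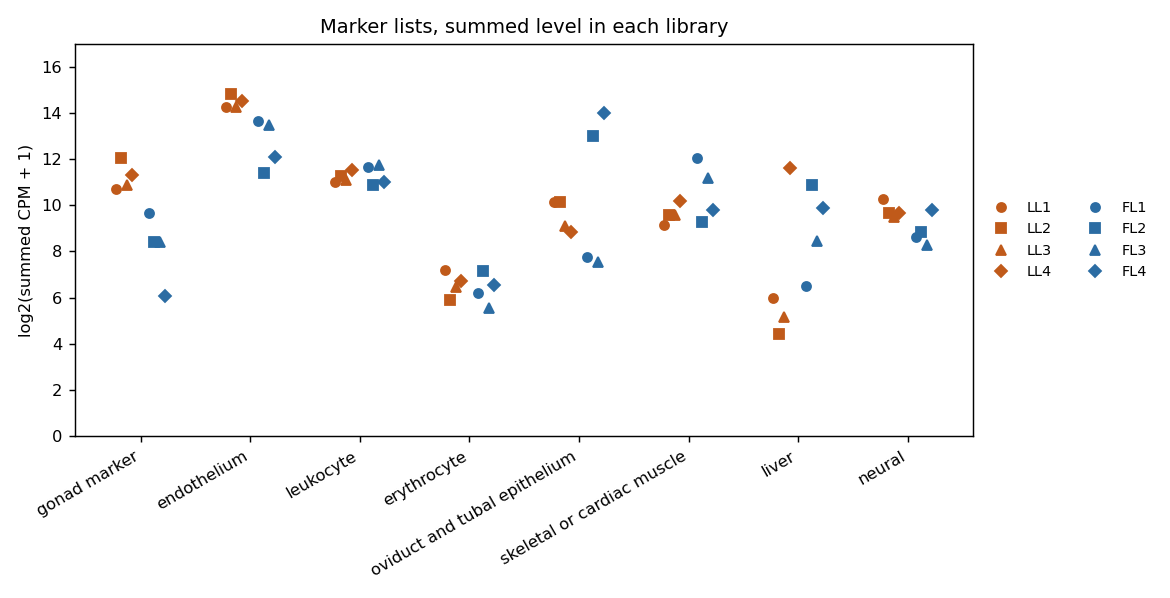
Summed level of each marker list in each of the 8 libraries, as log2(summed CPM + 1), with 1 point per library, LL in orange and FL in blue. The tubal sums of FL2 and FL4 stand above all others, and the gonad marker miR-202-5p is above every FL library in each LL library.

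The test of LL vs. FL took in 193 known and 146 predicted miRNAs, 339 in all, with edgeR's quasi-likelihood test, and p-values were adjusted over all of them by the Benjamini-Hochberg method. A miRNA was called different when its adjusted p was under 0.05. By this rule 45 known miRNAs differed, 23 higher and 22 lower in LL, which is 23.3% of the known miRNAs tested. Among all miRNAs tested, 60 (17.7%) were called, 9.73% higher and 7.96% lower in LL. By the threshold the study used, which asks for P under 0.05 before adjustment and at least a doubling or halving, 71 known miRNAs passed, 35 higher and 36 lower, against 29.8% of all miRNAs tested. The 4 LL values did not overlap the 4 FL values for 73 of the known miRNAs tested and for 44 of the 45 called, against 33.3% of all miRNAs tested. All 23 called higher and 21 of the 22 called lower had no overlap, and miR-190b was the exception. The called miRNAs were selected on these same values, so their lack of overlap is no separate support for the calls.

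Log2 fold changes are LL over FL throughout, so a negative value is a lower level in the luteal phase. Among the called known miRNAs the median absolute log2 fold change was 1.70 for the 23 higher and 1.95 for the 22 lower, and these medians do not depend on miR-338, whose fitted value has no lower limit because LL was at 0. Only miR-23a changed by less than 1 on this scale (-0.94). The median log2 fold change of all 193 known miRNAs was 0.05. With library size as the only scaling this median was 0.52 and 38 known miRNAs were called, 65.8% of them higher in LL, against 51.1% with TMM. Of the 45, 32 kept their call under this scaling. The calls lost were miR-185, miR-1249 and miR-7137-5p among the higher. Among the lower they were miR-150, miR-181a, miR-181d-5p, miR-190b, miR-204, miR-205, miR-206, miR-23a, miR-320 and miR-378. With TMM factors from the known miRNAs alone 45 were called, 35.6% of them higher. All 45 kept their direction under every alternative, and the shift of the median applies to each fold change given here. The number of known miRNAs called was 86 with DESeq2 and 6 without a filter on low counts. Without FL2 and FL4 it was 39, of which 25 were among the 45. The other 20 calls were lost without this pair of libraries and included, among those with the smallest P, miR-132, miR-335, miR-320 and miR-338. Leaving out 1 library at a time gave 23 (without LL2) to 53 (without FL4), with 27 without LL1 and 24 without LL3, and 19 of the 45 were called in each of these 8 fits. Each fit with libraries left out also asked for the minimum count in fewer libraries. It thus tested more miRNAs, 364 to 404 without 1 library and 488 without FL2 and FL4, against 339. A call lost in such a fit therefore does not single out the library left out. In bulk tissue, a change in the share of a cell type and a change in the level per cell cannot be told apart, and this holds for each difference described.

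**Figure D2:**
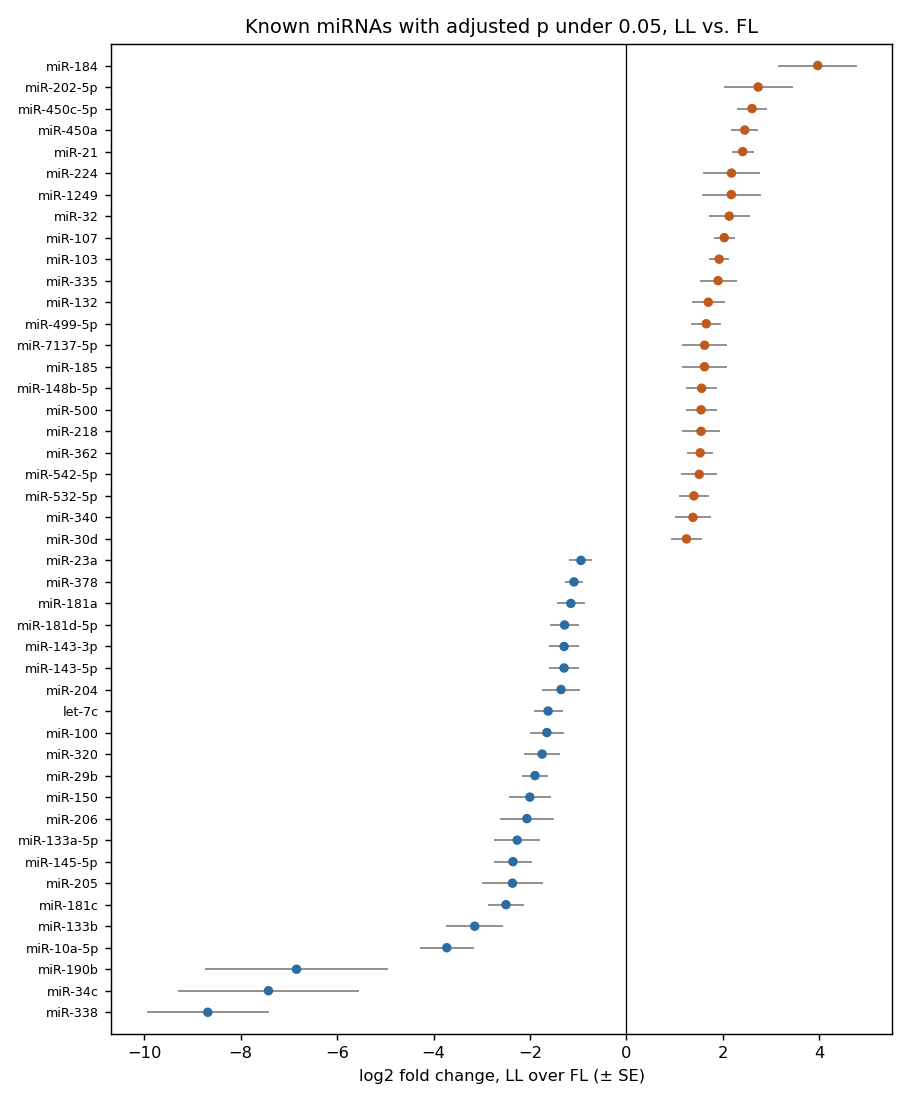
Log2 fold change, LL over FL, of the 45 known miRNAs with an adjusted p under 0.05, with bars for the standard error of the fit. The 23 higher miRNAs (orange) reach 3.97 for miR-184, and the 22 lower miRNAs (blue) include miR-34c, miR-190b and miR-338 with the widest bars.

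The largest movement in reads was in miR-21, which is known to protect granulosa cells from apoptosis and is induced by luteinizing hormone. The level of miR-21 was 219309, 244800, 209513 and 201529 CPM in LL1 to LL4 and 50581, 30598, 38247 and 45099 in FL1 to FL4. Each LL library was above each FL library, and the lowest LL value was several times the highest FL value. The means were 218788 ± 18804 CPM in LL and 41131 ± 8647 CPM in FL (mean ± SD, n = 4), a 5.32-fold difference (log2 fold change 2.41, SE 0.22, adjusted p = 0.00174). As a share of all counts, miR-21 took 29.9%, 30.3%, 24.7% and 20.1% in LL1 to LL4 and 2.71%, 3.15%, 2.83% and 5.44% in FL1 to FL4. FL1, with the lowest TMM factor, was the highest FL library in CPM and the lowest in share. The call held in each fit that left out a library.

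The other very abundant entries differed less or not beyond the spread between sows. The entries miR-143-3p and miR-143-5p hold identical counts in every library, so they are 1 measurement, and each is listed with a mean of 10.6% of counts in LL and 17.4% in FL. The miR-99a entry was 18695 to 86041 CPM in LL and 71919 to 287216 CPM in FL and its groups overlapped, with the highest LL value in LL4 and the lowest FL value in FL4 (log2 fold change -2.03, SE 0.60, adjusted p = 0.0519). For miR-26a the groups also overlapped, at 18199 to 56723 CPM in LL and 23145 to 191502 CPM in FL (log2 fold change -1.38, SE 0.67, adjusted p = 0.197). By mean share of counts the order in LL was miR-21 (26.2%), miR-143, miR-99a (4.69%) and miR-26a (3.93%), and in FL it was miR-143, miR-99a (13.4%), miR-26a (6.24%), miR-145-5p (4.07%) and miR-21 (3.53%). In both groups the difference between miR-99a and miR-26a, and in FL also those between miR-143 and miR-99a and between miR-26a, miR-145-5p and miR-21, left the libraries' shares overlapping.

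**Figure D3:**
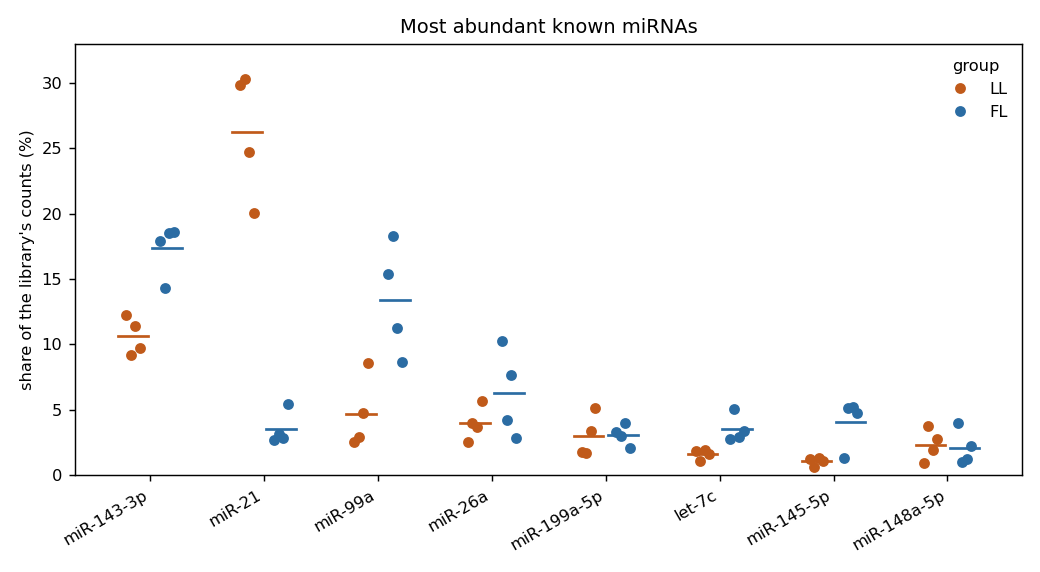
Share of each library's counts (%) taken by the most abundant known miRNAs, with 1 point per library, a line at the mean of 4 libraries, LL in orange and FL in blue. The share of miR-21 lies above 20% in all 4 LL libraries and below 6% in all 4 FL libraries, and that of miR-143 is lower in LL.

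Of the list of granulosa and luteal miRNAs, 7 of 8 were tested, and 4 rose (miR-21, miR-202-5p, miR-132 and miR-224) and 2 fell (miR-378 and miR-320) in LL, against 9.73% called higher and 7.96% called lower among all miRNAs tested. The median log2 fold change of the 7 was 2.06, against 0.22 over all miRNAs tested. This list, like the other lists described, was chosen with earlier results of these data known. Its values beside those of all miRNAs tested describe the list and are no test of it. The remaining tested member, miR-212, did not pass, and miR-383, known for raising estradiol release from granulosa cells, was not tested because it reached the count minimum in too few libraries.

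The pair miR-132 and miR-212 is transcribed together and is known to be induced in granulosa cells by luteinizing hormone. The level of miR-132 was 233, 356, 231 and 235 CPM in LL1 to LL4 and 89.2, 60.6, 113 and 61.4 in FL1 to FL4, and the LL libraries were all above the FL libraries (log2 fold change 1.70, SE 0.34, adjusted p = 0.0128). This call was lost without FL1 or without FL2. For miR-212 the values were 58.6, 49.7, 59.8 and 48.8 CPM in LL1 to LL4 and 5.41, 4.64, 25.6 and 16.2 in FL1 to FL4. These groups did not overlap either, but the difference did not pass the adjusted threshold (log2 fold change 2.06, SE 0.62, adjusted p = 0.0538).

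The gonad marker miR-202-5p, given by library above, was 6.65-fold higher in LL (log2 fold change 2.73, SE 0.71, adjusted p = 0.034). FL4, the library with the most miR-34c, had the lowest value of the 8. The call was lost without any one of LL1 to LL4, FL2 or FL3, and also without FL2 and FL4 together. At a far lower level, miR-224, known to act downstream of transforming growth factor beta in granulosa cells, was 13.2, 32.7, 17.05 and 9.71 CPM in LL1 to LL4 and 5.86, 3.35, 1.86 and 4.93 in FL1 to FL4. Its groups did not overlap (log2 fold change 2.18, SE 0.60, adjusted p = 0.0425), and its call was lost without any one of the 8 libraries.

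Both members that fell are known from granulosa cells. The level of miR-378, which is known to target the aromatase messenger RNA in porcine granulosa cells, was 1082, 832, 944 and 879 CPM in LL1 to LL4 and 1866, 1967, 1902 and 2207 in FL1 to FL4. The spread was small in both groups, and miR-378 was 2.12-fold higher in FL (log2 fold change -1.09, SE 0.19, adjusted p = 0.0101). The level of miR-320 was 1014, 499, 1006 and 1063 CPM in LL1 to LL4 and 1623, 4082, 3223 and 3109.9 in FL1 to FL4, lower in every LL library (log2 fold change -1.75, SE 0.37, adjusted p = 0.0146). Neither call was lost by leaving out 1 library, but both were lost when library size was the only scaling, and that of miR-320 also without FL2 and FL4.

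The levels of the 20 miRNAs with the smallest P in each direction are shown by library in the plot of log2(CPM + 1).

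**Figure D4:**
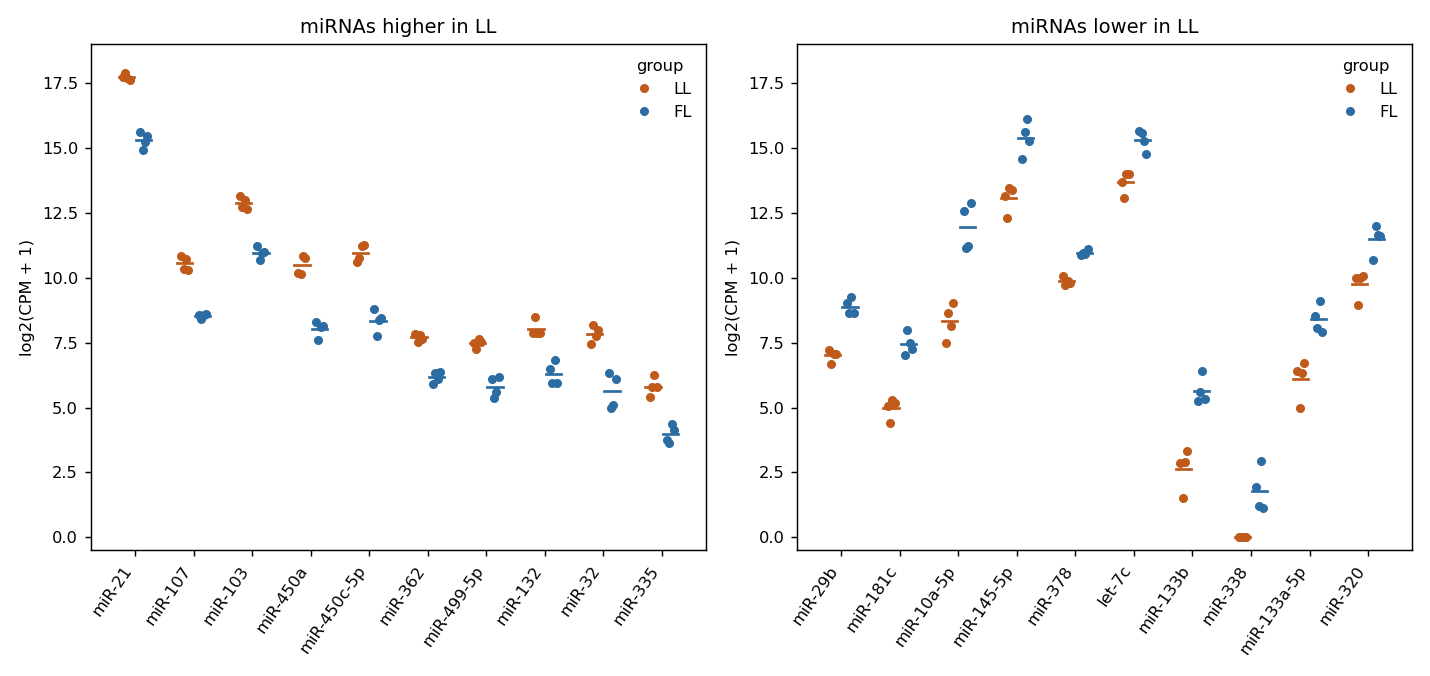
Levels of the 10 known miRNAs with the smallest P in each direction among those called, as log2(CPM + 1), with 1 point per library, a line at the mean of 4 libraries, LL in orange and FL in blue. No LL value overlaps an FL value for any of the 20, and miR-338 is at 0 in all LL libraries.

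The cluster of miR-450 and miR-542 is a set of miRNAs made from neighbouring hairpins on the X chromosome. 3 of its 4 members were called higher in LL (miR-450a, miR-450c-5p and miR-542-5p), none fell, and the median log2 fold change of the 4 was 2.16. Among all miRNAs tested 9.73% were called higher. The level of miR-450a was 1174, 1121, 1814 and 1725 CPM in LL1 to LL4 and 315, 195, 274 and 281 in FL1 to FL4 (log2 fold change 2.46, SE 0.28, adjusted p = 0.00179). The level of miR-450c-5p was 1549.7, 1749, 2381 and 2467 CPM in LL1 to LL4 and 439.7, 218, 328 and 353 in FL1 to FL4 (log2 fold change 2.61, SE 0.30, adjusted p = 0.00179). Each LL library was above each FL library for both, and neither call was lost by leaving out a library. For miR-542-5p the levels were 1328 to 3339.6 CPM in LL and 607 to 1042 CPM in FL, without overlap (log2 fold change 1.51, SE 0.37, adjusted p = 0.0304), and the call was lost without LL1, LL3, FL1, FL2 or FL3. The fourth member, miR-450b-5p, was 569 to 1273 CPM in LL and 96.9 to 618 CPM in FL and overlapped through LL1 and FL1 (log2 fold change 1.86, SE 0.61, adjusted p = 0.0734).

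The cluster of miR-362, miR-500 and miR-532, also on the X chromosome, had all 3 members called higher in LL (9.73% of all miRNAs tested were), with log2 fold changes between 1.40 and 1.55. The level of miR-362 was 225, 185, 223 and 198 CPM in LL1 to LL4 and 59.3, 78.9, 67.2 and 82.03 in FL1 to FL4 (log2 fold change 1.53, SE 0.27, adjusted p = 0.0101). The replicates of miR-362 lay close together in both groups, and its call held without any one library. The levels of miR-500 were 156 to 214 CPM in LL and 48.5 to 81.2 CPM in FL (log2 fold change 1.55, SE 0.32, adjusted p = 0.0142). The levels of miR-532-5p were 1548 to 2623 CPM in LL and 511 to 1053 CPM in FL (log2 fold change 1.40, SE 0.31, adjusted p = 0.0191). The miR-500 call was lost without FL3, and the miR-532-5p call without LL1, LL2, FL2, FL3 or FL4.

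The pair miR-103 and miR-107 lies in introns of pantothenate kinase genes and is known for a role in insulin sensitivity and lipid metabolism. Their mature sequences are nearly the same, so reads may be shared between the entries, and the assignment of such reads is not given in the sources used here. The level of miR-103 was 9021, 6782, 8171 and 6422 CPM in LL1 to LL4 and 2382, 1649.9, 1959.7 and 2020.3 in FL1 to FL4 (log2 fold change 1.92, SE 0.21, adjusted p = 0.00179). The level of miR-107 was 1809.6, 1299, 1691 and 1262 CPM in LL1 to LL4 and 381, 340.1, 374 and 389.8 in FL1 to FL4 (log2 fold change 2.03, SE 0.22, adjusted p = 0.00179). Both were higher in every LL library, with means of 1515 ± 276 CPM in LL and 371 ± 21.8 CPM in FL for miR-107 (mean ± SD, n = 4), and both calls held without any one library.

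Other miRNAs higher in LL came from several families. The level of miR-32 was 173, 289, 217 and 252 CPM in LL1 to LL4 and 79.7, 30.9, 33.05 and 68.4 in FL1 to FL4 (log2 fold change 2.13, SE 0.42, adjusted p = 0.0128). The level of miR-335, made from an intron of the imprinted gene MEST, was 41.3, 54.5, 75.6 and 54.1 CPM in LL1 to LL4 and 12.5, 11.6, 19.8 and 16.5 in FL1 to FL4 (log2 fold change 1.90, SE 0.38, adjusted p = 0.0136). For both the groups did not overlap, and the miR-335 call was lost without LL3. The level of miR-499-5p, made from an intron of a myosin heavy chain gene, was 178, 151, 198 and 183 CPM in LL1 to LL4 and 66.8, 39.9, 47.9 and 70.9 in FL1 to FL4 (log2 fold change 1.66, SE 0.31, adjusted p = 0.0121), with every LL library higher.

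The largest fold change among the 23 higher miRNAs was in miR-184, chosen for description after its values were seen. Its level was 694, 467, 537 and 186 CPM in LL1 to LL4 and 16.97, 78.9, 13.2 and 11.4 in FL1 to FL4. LL4 was the lowest LL library and FL2 the highest FL library, and they did not overlap (log2 fold change 3.97, SE 0.81, adjusted p = 0.0142). The call held without any one library, and the log2 fold change then ran from 3.60 to 4.93. From the other families, miR-148b-5p (2213 to 3666 CPM in LL and 569.9 to 1334 CPM in FL, log2 fold change 1.56, SE 0.32, adjusted p = 0.0142) and miR-30d (6542 to 11719 CPM in LL and 2386 to 4893 CPM in FL, log2 fold change 1.25, SE 0.31, adjusted p = 0.0304) were called. The first call was lost without LL1, LL2, FL2 or FL4, and the second without any library other than FL4. The other tested members of their lists, miR-148a-5p and miR-152 and the 4 further members of the miR-30 family, were not called and had overlapping groups.

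The rest of the miRNAs called higher, also described after their values were seen, were miR-185, miR-218, miR-340, miR-1249 and miR-7137-5p. Their log2 fold changes were 1.62, 1.55, 1.38, 2.18 and 1.62, with adjusted p from 0.0319 to 0.0483. Each of these calls was lost in at least 7 of the 8 fits that left out a library. The separate entry miR-218-5p was nearly equal to miR-218 in the libraries where it was above 0. It was at 0 in others and was not called (log2 fold change 2.37, SE 2.72, adjusted p = 0.604). The level of miR-1249 was 91.1, 45.1, 29.8 and 29.8 CPM in LL1 to LL4 and 4.20, 16.7, 9.12 and 13.3 in FL1 to FL4, with LL1 well above the other LL libraries. Among the called known miRNAs, miR-1249 is the one for which the study lists an oligo for RT-qPCR, and it is shown to identify what that assay primes. It runs over 21 bases, 5′ to 3′:
ssc-miR-1249 primer: atatacgcccttccccccctt

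The 3 entries of the cluster of miR-143 and miR-145, best known from smooth muscle cells, were all called lower in LL (7.96% of all miRNAs tested were), and they are 2 distinct measurements. The level of miR-143-3p was 90133, 74489.7, 96611 and 97421 CPM in LL1 to LL4 and 334008, 139401, 250915 and 154430 in FL1 to FL4, with the same values for miR-143-5p. The LL libraries lay close together below all FL libraries, which spread more widely in CPM (log2 fold change -1.29, SE 0.32, adjusted p = 0.0302). As shares of all counts the FL libraries lay closer together. These shares were 12.3%, 9.22%, 11.4% and 9.71% in LL1 to LL4 and 17.9%, 14.3%, 18.5% and 18.6% in FL1 to FL4. The call for miR-143 was lost without any one of LL1 to LL4. The level of miR-145-5p was 8950.2, 5074, 11158 and 10616 CPM in LL1 to LL4 and 24192, 49478, 70223 and 38954 in FL1 to FL4. It fell further than miR-143 in the fit, and its call held without any one library (log2 fold change -2.35, SE 0.40, adjusted p = 0.0101).

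Among the miRNAs lower in LL that were above 100 CPM in all 8 libraries, the largest fold was in miR-10a-5p, whose gene lies within a Hox gene cluster. Its level was 176, 399, 284 and 516 CPM in LL1 to LL4 and 6091, 2242, 2394 and 7452 in FL1 to FL4, and every FL library exceeded every LL library. The mean was 13.2-fold higher in FL in the fit (log2 fold change -3.72, SE 0.56, adjusted p = 0.00682), and no single library decided the call. The related miR-10b was at 7893 to 16414 CPM in LL and 9176 to 30191 CPM in FL, with overlap (log2 fold change -0.75, SE 0.41, adjusted p = 0.249). The list of miR-10 and miR-196 had 4 of 5 members tested, all with negative log2 fold changes, and miR-10a-5p alone was called. The level of miR-196a was 0, 0, 2.52 and 0.449 CPM in LL1 to LL4 and 56.3, 62.4, 1.18 and 3.67 in FL1 to FL4, and the groups overlapped.

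Of the miR-181 family, known for roles in lymphocyte development and in the vessel wall, 3 of 4 members fell in LL and all 4 had negative log2 fold changes (median -1.22), against 7.96% called lower among all miRNAs tested. The level of miR-181c was 32.1, 20.3, 38.4 and 35.5 CPM in LL1 to LL4 and 131, 252, 179.6 and 151 in FL1 to FL4 (log2 fold change -2.50, SE 0.37, adjusted p = 0.00682). The levels of miR-181d-5p were 148 to 241 CPM in LL and 331 to 608 CPM in FL (log2 fold change -1.28, SE 0.31, adjusted p = 0.0275). The levels of miR-181a were 1085 to 1947 CPM in LL and 2673 to 5026 CPM in FL (log2 fold change -1.15, SE 0.29, adjusted p = 0.0304). None of the 3 overlapped between groups. The miR-181c call held without each library in turn. The miR-181d-5p call was lost without LL2, LL3 or LL4, and that of miR-181a also without FL3. Both calls were also lost with library size as the only scaling, with parity as a covariate and without FL2 and FL4. The groups of miR-181b overlapped (log2 fold change -0.59, SE 0.27, adjusted p = 0.175).

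The miRNA with the smallest P among those lower in LL was miR-29b, known for targeting messenger RNAs of collagens. Its level was 149, 101, 134 and 131 CPM in LL1 to LL4 and 523, 397, 607 and 396 in FL1 to FL4, and the groups were well apart (log2 fold change -1.90, SE 0.28, adjusted p = 0.00682). The other tested member of the family, miR-29a, had a log2 fold change of -0.83 and was not called (adjusted p = 0.201). The third member, miR-29c, had counts in only 1 of the 8 libraries, 6482 in FL3, and was not tested.

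In the let-7 family 1 of 7 members was called, and the list's median log2 fold change was 0.09. The level of let-7c was 13207, 8575, 16329 and 16338 CPM in LL1 to LL4 and 51332, 49191, 39731 and 27601 in FL1 to FL4, lower in every LL library (log2 fold change -1.62, SE 0.30, adjusted p = 0.0121). The other 6 members overlapped between groups, with log2 fold changes from -0.25 to 0.67. The gene of let-7c neighbours that of miR-99a, and miR-100 belongs to the same family as miR-99a. The level of miR-100 was 2483, 2623, 4092 and 5779.7 CPM in LL1 to LL4 and 16513, 10214, 11733 and 8542 in FL1 to FL4, also lower in every LL library (log2 fold change -1.65, SE 0.35, adjusted p = 0.0159), and this call was lost without LL2. A further member, miR-99b, had 21269, 16426 and 11971 counts in FL1 to FL3 and 0 in FL4 and in all 4 LL libraries, and was not tested because it reached the count minimum in only 3 libraries. In the high-fecundity sows it had 12544, 16575 and 34546 counts in FH2 to FH4 and 0 in FH1 and in all 4 LH libraries. How reads were assigned to entries is not given in the sources used here. Absence of miR-99b therefore cannot be told apart from reads assigned to another entry. The near-identical sequences of let-7 members leave the assignment of reads between them uncertain.

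Of the list of skeletal or cardiac muscle miRNAs, 5 of 6 were tested, and 3 fell and 1 rose, against 9.73% called higher and 7.96% called lower among all miRNAs tested. The level of miR-133b was 6.21, 1.88, 6.51 and 8.94 CPM in LL1 to LL4 and 37.5, 47.5, 84.7 and 38.95 in FL1 to FL4 (log2 fold change -3.15, SE 0.60, adjusted p = 0.0121). The level of miR-133a-5p was 83.2, 30.6, 78.9 and 104 CPM in LL1 to LL4 and 369, 264, 556 and 241 in FL1 to FL4 (log2 fold change -2.27, SE 0.47, adjusted p = 0.0145). Neither overlapped between groups, and both calls held without any one library. The level of miR-206 was 6.90, 3.25, 3.13 and 5.30 CPM in LL1 to LL4 and 27.3, 7.78, 25.3 and 17.4 in FL1 to FL4 (log2 fold change -2.06, SE 0.56, adjusted p = 0.042), and its call was lost without FL1, FL3, FL4 or any of LL1 to LL4. The most abundant member, miR-1, was 299, 587, 486 and 865 CPM in LL1 to LL4 and 3697, 266, 1649.8 and 510.4 in FL1 to FL4, with FL1 and FL3 high and FL2 and FL4 below the highest LL value, and it was not called (log2 fold change -1.45, SE 0.79, adjusted p = 0.245). The member that rose was miR-499-5p, and miR-208b was at 0 in 7 libraries. The part of other tissue in these differences was not tested.

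The miRNA miR-338, made from an intron of the kinase gene AATK, was not detected in LL. It had 0, 0, 0 and 0 counts in LL1 to LL4 and 38, 12, 68 and 21 in FL1 to FL4. All 4 FL libraries had counts and no LL library did. It thus reached the count minimum through FL alone, and a miRNA tested on that ground had to differ, so its call (adjusted p = 0.0128) is no support for a difference of phase beyond the counts themselves. With 0 counts over the 4 LL libraries allowing up to 3, miR-338 was at least 79.6-fold lower in LL, and without FL3, the library with the most counts, at least 51.0-fold lower. This bound covers counting error only, since reads were amplified without molecular identifiers. The call was lost without FL2 and FL4.

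Among the 20 calls lost without FL2 and FL4, those of miR-34c and miR-190b had nearly all of their FL signal in these libraries. The level of miR-34c, known from ciliated and other epithelium of the oviduct, was 28.2, 20.2, 52.2 and 37.6 CPM in LL1 to LL4 and 77.1, 8128, 87.9 and 15454 in FL1 to FL4. FL1 and FL3 were only just above the LL libraries, and FL2 and FL4 carried nearly all of the FL signal (log2 fold change -7.42, SE 1.87, adjusted p = 0.0304). The level of miR-190b was 0.388, 0.57, 0.38 and 0.367 CPM in LL1 to LL4 and 1.28, 26.7, 0.392 and 170.3 in FL1 to FL4, with FL3 within the range of LL (log2 fold change -6.84, SE 1.90, adjusted p = 0.0429) and only 1 LL library at the count minimum. Both calls were lost without FL2 or any of LL1 to LL4, and that of miR-190b also without FL4. Without FL2 and FL4 together neither passed, with log2 fold changes of -1.29 for miR-34c and -0.85 for miR-190b.

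The remaining miRNAs lower in LL were miR-150, miR-23a, miR-204 and miR-205. The level of miR-150, a marker of mature lymphocytes, was 28.6, 27.3, 40.4 and 53.6 CPM in LL1 to LL4 and 81.00, 158, 125 and 237 in FL1 to FL4, and the groups did not overlap (log2 fold change -2.003, SE 0.44, adjusted p = 0.0187), but the call was lost without LL2, without LL3 and without FL2 and FL4. The level of miR-205, an epithelial miRNA on the tubal list, was 12.9, 6.67, 14.9 and 15.4 CPM in LL1 to LL4 and 35.4, 32.7, 42.6 and 146 in FL1 to FL4, with FL4 highest (log2 fold change -2.36, SE 0.63, adjusted p = 0.0384). The miR-205 call was lost without FL3, without any of LL1 to LL4 and without FL2 and FL4. The levels of miR-23a were 650.5 to 1107 CPM in LL and 1466 to 1994 CPM in FL (log2 fold change -0.94, SE 0.24, adjusted p = 0.0304), and the call was lost without FL3 or any of LL1 to LL4. Its cluster partner miR-27a had a log2 fold change of 0.02 and was not called. The levels of miR-204, described after its values were seen, were 41.9 to 88.7 CPM in LL and 109.8 to 189 CPM in FL (log2 fold change -1.36, SE 0.39, adjusted p = 0.0463), and its call was lost in 6 of the 8 fits that left out a library.

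Several families did not pass the adjusted threshold in any member, and 1 list, given last here, passed in 1 member. All 3 entries of miR-221 and miR-222 passed the study threshold and had no overlap between groups, with miR-222 at 314, 528, 471 and 381 CPM in LL1 to LL4 and 60.2, 118, 64.2 and 294 in FL1 to FL4 (log2 fold change 1.66, SE 0.56, adjusted p = 0.0764). The entries miR-221-3p and miR-221-5p hold identical counts, at 818 to 1058 CPM in LL and 159.5 to 704 CPM in FL. Of the miR-17-92 cluster and its paralogs 9 of 10 were tested and 6 had positive log2 fold changes (median 0.78, from -1.41 to 1.15). Of the list of miR-15, miR-16, miR-195 and miR-497 all 5 were tested (median -0.02). The list of miR-199 and miR-214 had a median of -0.59, with near-identical counts in miR-199a-5p and miR-199b-5p, and the imprinted DLK1-DIO3 list had a median of 0.03 over 6 tested members. In the list of miR-23, miR-27 and miR-24, miR-23a alone was called, and 5 of the 6 log2 fold changes were positive.

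Markers of other cells did not move as whole lists. The endothelial marker miR-126-5p was 19468, 29149, 19781 and 23952 CPM in LL1 to LL4 and 12928, 2727, 11408 and 4447 in FL1 to FL4, without overlap, and passed the study threshold but not the adjusted one (log2 fold change 1.55, SE 0.50, adjusted p = 0.0712). In the leukocyte list miR-150 alone was called of 5, and the summed level was 2061 to 2938 CPM in LL and 1909 to 3472 CPM in FL. The erythrocyte markers miR-144 and miR-486 summed to 58.9 to 144 CPM in LL and 46.4 to 142 CPM in FL, with neither called. In the tubal list 2 of 5 fell (miR-34c and miR-205), against 7.96% of all miRNAs tested, whereas miR-182 and miR-183 had log2 fold changes of 2.11 and 2.63 and adjusted p of 0.067 and 0.0605. The liver list had 0 of 4 called, with sums of 20.4 to 3169 CPM in LL, the highest in LL4, and 90.8 to 1897 CPM in FL, the highest in FL2. Of the neural list 5 of 7 were tested and none was called, and the sums were 721 to 1238 CPM in LL and 310 to 897 CPM in FL. The defining liver miRNA miR-122 was 35.9, 1.996, 2.85 and 2.08 CPM in LL1 to LL4 and 41.7, 1510.4, 286 and 115 in FL1 to FL4 (log2 fold change -5.51, SE 1.63, adjusted p = 0.0519). The part of these cells in the differences of phase was not tested.

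Many miRNA genes lie next to each other and are transcribed together, a property the choice of libraries did not use. In the RefSeq annotation of Sscrofa11.1, 212 of the 216 known entries were matched, and 92 had another known entry within 10 kb. With entries of identical counts taken as 1 measurement, 22 neighbouring pairs were tested and include a called miRNA, and 19 of these had log2 fold changes of the same sign. These pairs include miR-218 with miR-218-5p, which were nearly equal in the libraries where both were above 0. In 9 pairs both were called, and all 9 moved in the same direction, among them miR-133b with miR-206 and miR-181c with miR-181d-5p. The 9 are not separate agreements. Several share members, within the cluster of miR-450 and miR-542 and within that of miR-362, miR-500 and miR-532. The 3 pairs of opposite sign were miR-23a with miR-27a, miR-23a with miR-24-1-5p, and miR-30d with miR-30b-5p. Over all 68 neighbouring pairs tested, counted in the same way, 41 had the same sign. The 68 include the 22, which were chosen for holding a called miRNA, and a smaller share of the other pairs had the same sign.

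The same comparison of phases in the high-fecundity sows (LH, luteal, against FH, follicular, 4 sows each) shares no library with LL vs. FL. There, 3 of 323 miRNAs tested (0.929%) had an adjusted p under 0.05, and 51 had an unadjusted P under 0.05. The 2 known ones were miR-142-5p, with 0 counts in all 4 LH libraries and 3156, 1489, 2768 and 4095 in FH1 to FH4, and miR-497 (log2 fold change -1.45, SE 0.24, adjusted p = 0.0297). Both were lower in the luteal phase and neither was called in LL vs. FL. As with miR-338 in LL vs. FL, miR-142-5p reached the count minimum through FH alone and had to differ once tested. Its call is therefore no support for a difference of phase beyond the counts themselves. In the low-fecundity sows miR-142-5p was at 0 in LL2 and FL1 and at 2541 to 9079 counts in the other 6 libraries, so it switched between 0 and many counts within a group too, and absence cannot be told apart from reads assigned to another entry. DESeq2 called 10 there.

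Of the 45 known miRNAs called in LL vs. FL, 42 had log2 fold changes of the same sign in LH vs. FH, and miR-34c, miR-190b and miR-204 had the opposite sign. None of the 45 was called in LH vs. FH by edgeR's test, and 11 had an unadjusted P under 0.05 in the same direction. The size of the log2 fold change was smaller in LH vs. FH for all 45, with a median of 0.84 against 1.90. The 45 were selected for passing in LL vs. FL, so their sizes there are not independent of the choice. Over the 189 known miRNAs tested in both, 142 had the same sign, with a Pearson correlation of 0.14 and a Spearman correlation of 0.55 across miRNAs, which share libraries within each comparison. The Pearson value includes miR-142-5p, at 0 in all LH libraries. For miR-21 the levels were 169244, 29899.8, 308425 and 108136 CPM in LH1 to LH4 and 92082, 33633, 51063 and 31917 in FH1 to FH4 on the scale of all 16 libraries, so LH2 was below all 4 FH libraries (log2 fold change 1.61, SE 0.68, adjusted p = 0.307).

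**Figure D5:**
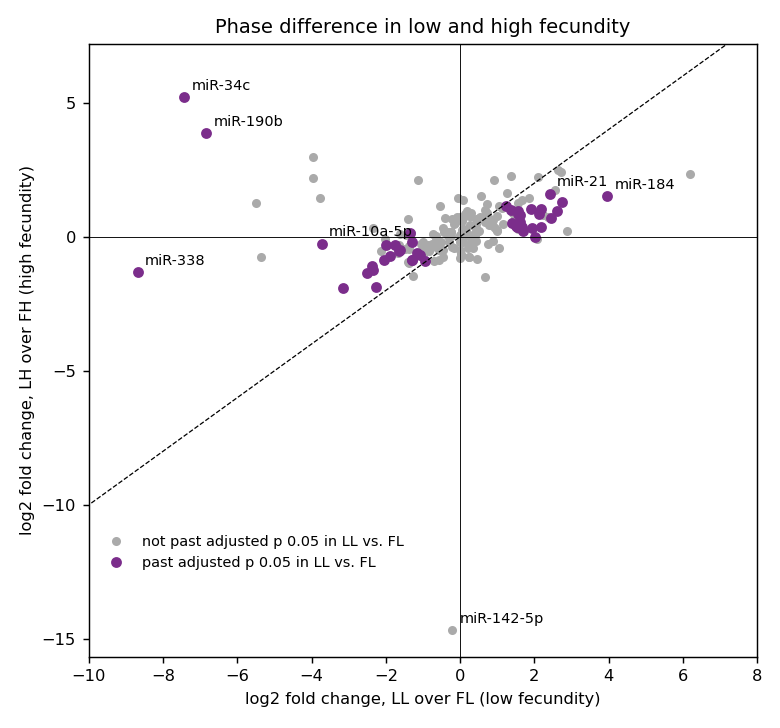
Log2 fold change of luteal over follicular phase in low-fecundity sows (horizontal) and high-fecundity sows (vertical) for the 189 known miRNAs tested in both, with the 45 called in LL vs. FL in purple and a dashed line of equal change. 42 of the 45 have the same sign on both axes, and miR-34c and miR-190b lie far from the line.

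The difference between the phase effects of low and high fecundity was tested as an interaction over all 16 libraries. Of 445 miRNAs tested, 0 (0%) had an adjusted p under 0.05 in edgeR's test, 63 had an unadjusted P under 0.05, and DESeq2 called 59. The 3 known miRNAs with the smallest P were miR-338, miR-107 and miR-34c, with interaction log2 values, as the LL over FL minus the LH over FH difference, of -7.42 (SE 1.39, adjusted p = 0.0693), 1.95 (SE 0.41, adjusted p = 0.0693) and -12.91 (SE 3.08, adjusted p = 0.0813). The level of miR-107 in the high-fecundity sows was 694, 316, 614 and 521 CPM in LH1 to LH4 and 852, 411, 544 and 400.3 in FH1 to FH4 on the scale of all 16 libraries, with the phases overlapping. The level of miR-34c there was 49.7, 42.05, 115 and 21379 CPM in LH1 to LH4 and 82.5, 196, 145 and 142 in FH1 to FH4, so a single luteal library, LH4, was as high as FL2 and FL4. The level of miR-338 was 0.439, 1.91, 1.11 and 2.60 CPM in LH1 to LH4 and 1.60, 9.25, 1.55 and 2.43 in FH1 to FH4, above 0 in all 8 libraries, and its interaction value depends on the fit because LL was at 0. With DESeq2 all 3 interactions had an adjusted p under 0.05.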

How the data were processed

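Small RNA libraries of ovaries from 16 sows were examined, 4 each in LL, FL, LH and FH. By the study's methods, the authors trimmed reads with Trimmomatic and mapped them to Sscrofa10.2 with Bowtie2, version 2.1.0 in the submitters' processing notes. They deposited raw counts of reads per miRNA and library, without normalization. How a read was assigned to an entry is not given in the sources used here. Reads can be shared by entries of like sequence. Counts identical to another entry are held by 935 of the 1940 entries, 10 of them known. These include entries of very few counts, such as miR-124a with at most 3 in a library, which can match without shared reads. With identical entries collapsed, 322 miRNAs were tested in LL vs. FL, against 339.

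The quasi-likelihood test of edgeR 4.0.16, run in R 4.3.3 after TMM scaling, was applied to LL and FL, to LH and FH, and to the interaction over all 16 libraries. Low counts were removed by filterByExpr, set to 10 counts at the median depth in at least 4 libraries and 15 in total. Where libraries were left out, the number of libraries asked for was the size of the smaller group. Known and predicted miRNAs were tested together. A call is an adjusted p under 0.05 (Benjamini-Hochberg). Exact two-sided permutation tests of log2(CPM + 1) between 4 and 4 sows cannot give a p below 0.0286, and all called known miRNAs except miR-190b gave that value. These miRNAs were selected on the same values, so this is no separate support for the calls. The pseudocount was 1. The standard error is the log2 fold change divided by the square root of edgeR's F.

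Named were up to 10 called known miRNAs per direction with the smallest P, the 5 most abundant known miRNAs, the 3 with the smallest P of the interaction, and members of lists of families, ovarian cells and markers. The members and the lists were chosen with earlier results of these data known. Alternatives were DESeq2 1.42.0, scaling by library size only, TMM factors from the known miRNAs, other filters, identical entries collapsed, a single fit of all 16 libraries, a replicate block, parity or clean read share as a covariate, leaving out each library, and leaving out FL2 and FL4 together. The test was checked on simulated counts. Mature sequences were not used here, so no families by seed were formed, and no positions are given because the annotation used for neighbours is of another build than the reads.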

Additional observations from a re-analysis of the deposited data

Results flagged for a closer look

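In groups of 4 libraries, 5 of the 94 groups of values examined had 1 library far from the other 3 by Dixon's test, and chance alone gives about 1 in 20. All 5 were LL2. It was the highest LL library for miR-132 (356 CPM, the others 231 to 235 CPM), for miR-30d (11719 CPM, the others 6542 to 7084 CPM), for miR-532-5p (2623 CPM, the others 1548 to 1663 CPM) and for miR-190b (0.57 CPM, the others 0.367 to 0.388 CPM), and the lowest for miR-320 (499 CPM, the others 1006 to 1063 CPM). The flag for miR-190b rests on very few reads, since the LL libraries had only 8 to 10 counts each.

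Predicted miRNAs, which are not among the members described, also differed between the phases, with 15 of 146 tested at an adjusted p under 0.05 in LL vs. FL (edgeR's quasi-likelihood test), 10 higher and 5 lower in LL.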

How the results depend on the processing

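All 45 known miRNAs called in LL vs. FL kept their direction under every alternative. The 23 higher and 22 lower became 43 and 43 with DESeq2 (121 called in all), 3 and 3 without a filter on low counts (6 in all, of 1469 tested), 13 lower with library size only, 35 lower in a fit of all 16 libraries and 14 lower with parity as a covariate. Leaving out 1 library gave 33 (without LL2) to 79 (without FL4) called in all, with 11 to 23 known higher and 10 to 30 known lower. The known miRNAs past the study threshold were 55 to 84 against 71. In LH vs. FH the 3 called were 10 with DESeq2, 1 when the clean read share entered the fit, and 1 (without FH3) to 3 without a library, where 13 (without FH2) to 33 known passed the study threshold. For the interaction, DESeq2 called 59, the fit without a filter 24, and fits without a library 0 to 6 (6 without LH1). The cause was not tested.

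Replicate numbers do not pair the sows, which were different animals: deviations of same-numbered libraries from their group means correlated at -0.453, -0.218, -0.102 and -0.249. With the replicate number as a block, which leaves fewer degrees of freedom, 0 miRNAs were called in LL vs. FL, 0 known higher and 0 known lower (73 at an unadjusted P under 0.05), 0 in LH vs. FH, and 19 known passed the study threshold in the interaction. No library correlated best with its own number.

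Some called values rest on few counts: miR-338 had 0 counts in LL and 12 to 68 in FL, and miR-190b had 8 to 10 in LL.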

Other observations

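Another 27 known miRNAs passed the study threshold in LL vs. FL without an adjusted p under 0.05 in edgeR's quasi-likelihood test. Among them, described after their values were seen, miR-183 was 344, 279, 98.1 and 104 CPM in LL1 to LL4 and 20.04, 22.2, 8.34 and 83.1 in FL1 to FL4, with no overlap (log2 fold change 2.63, SE 0.81, adjusted p = 0.0605). Its neighbour miR-182 was 742, 816, 383 and 274 CPM in LL1 to LL4 and 80.9, 92.2, 44.3 and 296 in FL1 to FL4, and overlapped through LL4 and FL4 (log2 fold change 2.11, SE 0.67, adjusted p = 0.067). Both are known from sensory and other epithelium, and both were higher in LL while miR-34c and miR-205 of the same tubal list were lower.

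Some entries switched between 0 and many counts from library to library. Of the known entries, 21 were at 0 in at least 1 of the 8 libraries and at 100 counts or more in another, and none of them was called. How reads were assigned to entries is not given in the sources used here. From an entry's own counts, absence cannot be told apart from reads assigned to another entry. For miR-142-5p, a marker of blood cells, the values were 6722, 0, 6625 and 7427 counts in LL1 to LL4 and 0, 2573, 2541 and 9079 in FL1 to FL4. For miR-218-5p they were 20312, 28254, 23067 and 0 counts in LL1 to LL4 and 0, 2262, 0 and 7813 in FL1 to FL4. Where miR-218-5p was above 0, the separate entry miR-218 was nearly equal to it. On the scale of all 16 libraries, LL1 and LL2 had 686 and 1457 CPM of miR-218-5p and 685 and 1456 CPM of miR-218. Where miR-218-5p was at 0, miR-218 was at 839 CPM in LL4, 458 in FL1 and 231 in FL3. Those 0 values thus did not go with an absence of miR-218. For miR-361-5p the values were 1974, 4258, 2127 and 3517 counts in LL1 to LL4 and 2064, 0, 1268 and 0 in FL1 to FL4, whereas miR-361-3p had 1859 counts in FL2 and 0 in the other 7 libraries. For miR-194b-5p the values were 0, 31, 42 and 16568 counts in LL1 to LL4 and 0, 29, 7 and 95 in FL1 to FL4, so LL4 alone was high.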
